A study of Homo sapiens with 18 samples.

Results

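The genes described here are the replication-dependent histone genes of MCF10A-ErSrc cells, chosen by their symbols (H1-1 to H1-6 and the genes named H2AC, H2BC, H3C or H4C with a number). Of 69 such genes with a symbol in the RefSeq table, 60 had reads in at least 1 RNA-Seq library, among 23604 genes listed in all. They were 5 H1, 16 H2A, 16 H2B, 13 H3 and 10 H4 genes, of which 46 lie on chromosome 6, 13 on chromosome 1 and 1 on chromosome 12. The other 9 (H2AC1, H2BC1, H4C2, H2BC3, H4C6, H4C7, H4C11, H1-5 and H4C13) were listed in no library. In 3 pairs (H3C14 and H3C15, H4C14 and H4C15, H2AC18 and H2AC19) both genes had the same values in every library, so each pair holds a single measurement. Counts of members below include both genes of a pair unless stated otherwise, and some counts of calls are also given with each pair counted once.

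MCF10A-ErSrc is an established line of human mammary epithelium in which the v-Src oncogene is fused to an estrogen receptor domain, so that tamoxifen turns the kinase on. Cells without tamoxifen are called NT, and those transformed with it TAM. Cells of both states were then kept for 4 h in DMSO or in TPL (triptolide, labelled TPL-125nM), a compound that acts on XPB in the transcription factor TFIIH, which gave the groups NT, NT+TPL, TAM and TAM+TPL. Poly-A-enriched RNA was sequenced from 2 biological replicates per group, and 4 lists of RNAPII ChIP-Seq peaks, 1 per condition, covered the same treatments.

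Replication-dependent histone genes are transcribed mainly in S phase, when new DNA is packed into nucleosomes, and they are the metazoan genes whose mRNAs normally end without a poly-A tail. The 3' end is instead a short stem-loop bound by SLBP (stem-loop binding protein) and cut with the help of the U7 snRNP, while NPAT, a substrate of cyclin E and CDK2, gathers transcription at the clusters. Because the libraries were made from poly-A-enriched RNA, the values below describe polyadenylated or carried-over histone RNA and not the whole pool of histone mRNA. Values are also relative to the rest of the library, and in cultures of mixed cell cycle stage fewer cells in S phase and less RNA per cell cannot be told apart.

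The stem-loop is shown first because it is what sets these mRNAs apart. Within 100 bases after the stop codon, all 57 listed members with an annotated stop codon on GRCh37 held the histone stem-loop consensus, against 67 of 19758 protein-coding genes searched (0.339%). The 3 remaining listed members (H2AC18, H2BC7 and H2BC8) were not placed in that annotation. The others with the element were 7 replication-dependent histone genes listed in no library, and H2AX, H3-4 and H3-7. The element began 22 to 67 bases after the stop codon. The sequences below carry the 16 bases of the stem-loop in capitals with 5 flanking bases on each side, and they stand for the highest member of each family and for H2BC6 and H2BC5, on which the TPL comparison turns.
H1-2: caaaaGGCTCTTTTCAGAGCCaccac
H2AC19: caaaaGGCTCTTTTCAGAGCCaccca
H2BC12: ccaaaGGCTCTTTTAAGAGCCactta
H3C14: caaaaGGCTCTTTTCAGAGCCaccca
H4C12: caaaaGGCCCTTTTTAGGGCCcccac
H2BC6: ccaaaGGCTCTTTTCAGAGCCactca
H2BC5: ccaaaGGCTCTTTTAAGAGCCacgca
On GRCh37 they lie at chr6:26055967-26055992 (minus strand), chr1:149823136-149823161 (plus strand), chr6:27114140-27114165 (minus strand), chr1:149812259-149812284 (minus strand), chr6:27798951-27798976 (minus strand), chr6:26184433-26184458 (plus strand) and chr6:26158810-26158835 (plus strand), each after the stop codon of its gene.

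The same 16 bases were shared across families. In 34 of the 57 members the capitals read as in H1-2 and H2BC6, and in 8 as in H2BC12 and H2BC5. The first arm of the stem began GGCCC in all 10 H4 members and in no member of another family, where it began GGCTC in 46 genes and GGTTC in H2AC15. The arm thus set H4 apart from the other families. H2BC6, H2AC19 and H1-2 carried the same 16 bases, although their values with TPL, given below, differ.

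Promoters of the members shared 3 short motifs, searched in the 300 bases from 250 before to 50 after the RefSeq start (GRCh38.p14) in the 55 members with an entry. TATAAA, read on the gene strand, was present in 54.5% of members and 7.71% of all 27305 promoters. CCAAT, read on both strands, was present in 87.3% against 35.7%, and in all 5 H1, 15 H2A, 16 H2B and 11 H3 promoters but 1 of 8 H4 promoters. The octamer ATTTGCAT, on both strands, was present in 41.8% against 1.80%, in 10 H2A and 12 H2B promoters, in no H1 or H4 promoter, and in the H3 family in that of H3C4 alone. The RefSeq entry of H3C4 covers the same 300 bases as that of H2AC7, so this octamer is counted for both genes. The 250 bases before the start are printed for H2BC12, the member with the most RNA, for H2BC6, which had no read in NT cells, and for H2BC17, whose promoter is also that of the divergent gene H2AC17. Capitals mark the 3 motifs (both strands for CCAAT and the octamer).
H2BC12: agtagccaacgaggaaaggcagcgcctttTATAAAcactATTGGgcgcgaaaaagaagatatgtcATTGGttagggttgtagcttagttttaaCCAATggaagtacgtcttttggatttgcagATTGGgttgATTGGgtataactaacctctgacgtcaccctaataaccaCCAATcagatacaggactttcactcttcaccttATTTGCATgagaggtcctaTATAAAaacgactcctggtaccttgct
H2BC6: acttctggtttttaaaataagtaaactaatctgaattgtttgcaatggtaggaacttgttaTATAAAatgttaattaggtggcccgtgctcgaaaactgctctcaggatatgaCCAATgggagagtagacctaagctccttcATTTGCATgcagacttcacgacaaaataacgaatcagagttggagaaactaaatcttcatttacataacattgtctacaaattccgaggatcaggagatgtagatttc
H2BC17: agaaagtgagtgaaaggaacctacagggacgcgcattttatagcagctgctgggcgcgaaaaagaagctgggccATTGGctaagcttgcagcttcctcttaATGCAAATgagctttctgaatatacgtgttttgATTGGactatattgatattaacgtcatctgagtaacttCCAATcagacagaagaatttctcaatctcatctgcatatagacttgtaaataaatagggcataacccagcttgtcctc
They lie at chr6:27146859-27147108 (minus strand), chr6:26183511-26183760 (plus strand) and chr6:27893175-27893424 (plus strand) of GRCh38.p14, upstream of the RefSeq start.

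Histone RNA made up a very small part of each library. Members together took 0.0230 and 0.0229% of the counts of NT against 0.0380 and 0.0361% of NT+TPL, and 0.0142 and 0.0153% of TAM against 0.0203 and 0.0199% of TAM+TPL. The numbers of members with a read were 37 and 37, 49 and 50, 41 and 38, and 46 and 50 in the same order of groups. Both TPL libraries of each cell state were above both DMSO libraries in share and in members listed, while the TAM libraries were below the NT libraries in share. Across all genes the number listed moved the same way, from 18485 to 18566 with DMSO to 19584 to 20156 with TPL, beside which the number of members listed has to be read.

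Level was concentrated in a few members. By mean FPKM, which is scaled by gene length and library total, 36 of 60 members reached at least 1 and 7 reached at least 10. H2BC12 and the pair H2AC18 and H2AC19 held between 42.1 and 71.0% of the summed FPKM of the members, with the highest shares in NT libraries. Several of the high members have gene models in the files that are long beside the coding sequence. The excess counts bases before the start codon as well as after the stop codon, so it does not show where a model ends relative to the stem-loop. Of the 15 members whose model exceeded the coding sequence by over 100 bases, 7 had a mean of at least 5 FPKM, against 4 of the 42 with shorter models. The longest models among the abundant members were those of H2BC21 (2223 bases) and H2BC12 (863 bases).

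**Figure D1:**
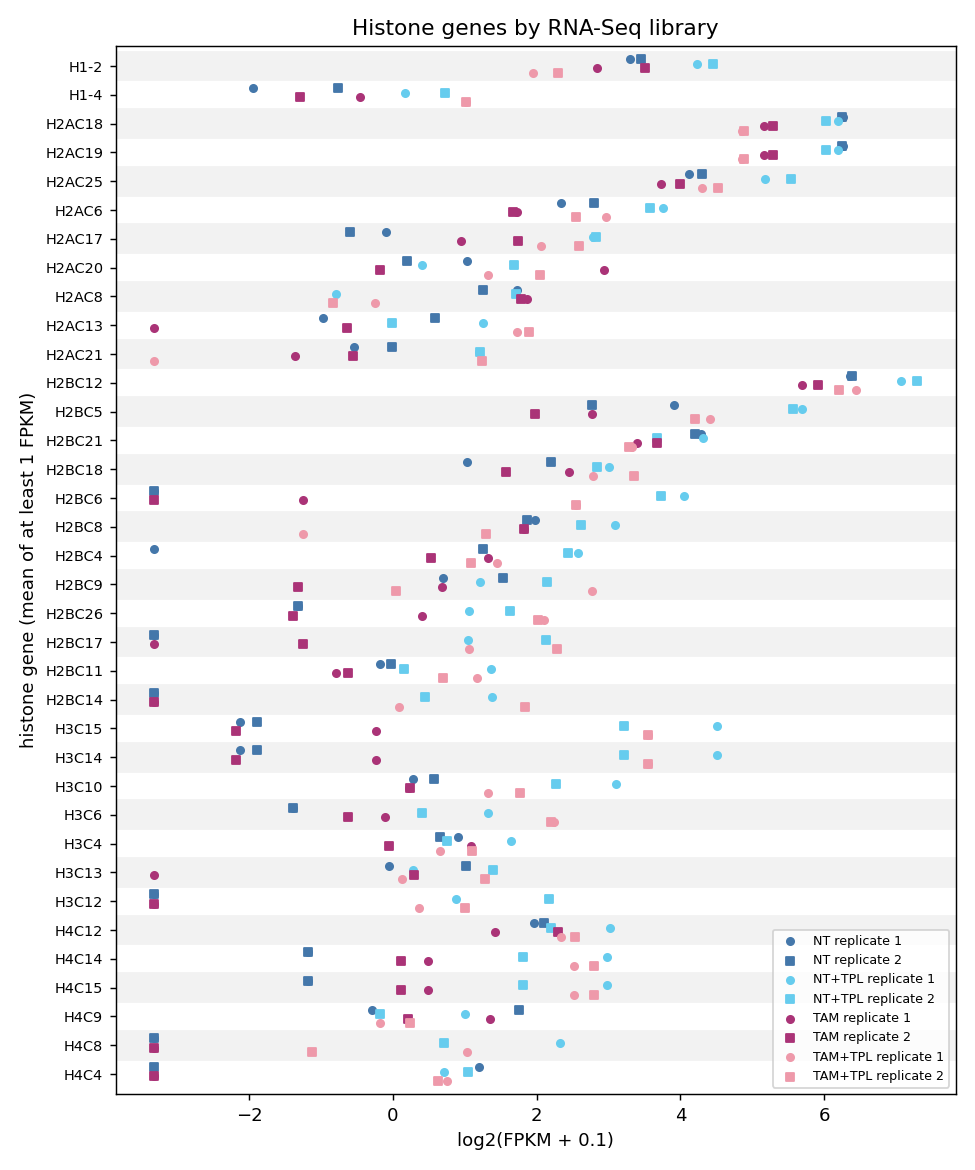
Expression of the 36 histone genes with a mean of at least 1 FPKM; the horizontal axis is log2(FPKM + 0.1), each point is 1 library, and colours and symbols give group and replicate. H2BC12, H2AC18 and H2AC19 lie furthest to the right, and for H2BC6, H2BC17 and H2BC14 the DMSO points sit at or near 0 FPKM while the TPL points do not.

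Summed by family, the TPL libraries stood highest over DMSO for H3 and H4. Summed H3 FPKM was 5.14 and 5.70 in NT against 63.0 and 34.7 in NT+TPL, and 6.25 and 4.40 in TAM against 34.3 and 38.6 in TAM+TPL. Summed H4 FPKM was 7.73 and 9.52 in NT against 33.4 and 18.6 in NT+TPL, and 9.28 and 8.83 in TAM against 21.9 and 23.9 in TAM+TPL. The ratio of the means was thus 9.01 in NT and 6.85 in TAM cells for H3, and 3.02 and 2.53 for H4, with no overlap between libraries. Most of the H3 sum with TPL came from the pair H3C14 and H3C15, a single measurement. Its mean was 15.9 FPKM per gene in NT+TPL and 11.6 in TAM+TPL. Summed H2B FPKM was 125.3 and 123 in NT against 260.2 and 265 in NT+TPL, and 84.5 and 85.8 in TAM against 151 and 138 in TAM+TPL. For H2A, the ratio of means was 1.15 in NT and 0.968 in TAM cells. The H2A ratio in NT cells lay below 1 when libraries were scaled to equal GAPDH. Summed H2A FPKM was 106.97 and 106.98 in TAM against 100.31 and 106.76 in TAM+TPL, close together but without overlap. H1, carried almost entirely by H1-2, had a ratio of 2.01 in NT and 0.665 in TAM cells.

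**Figure D2:**
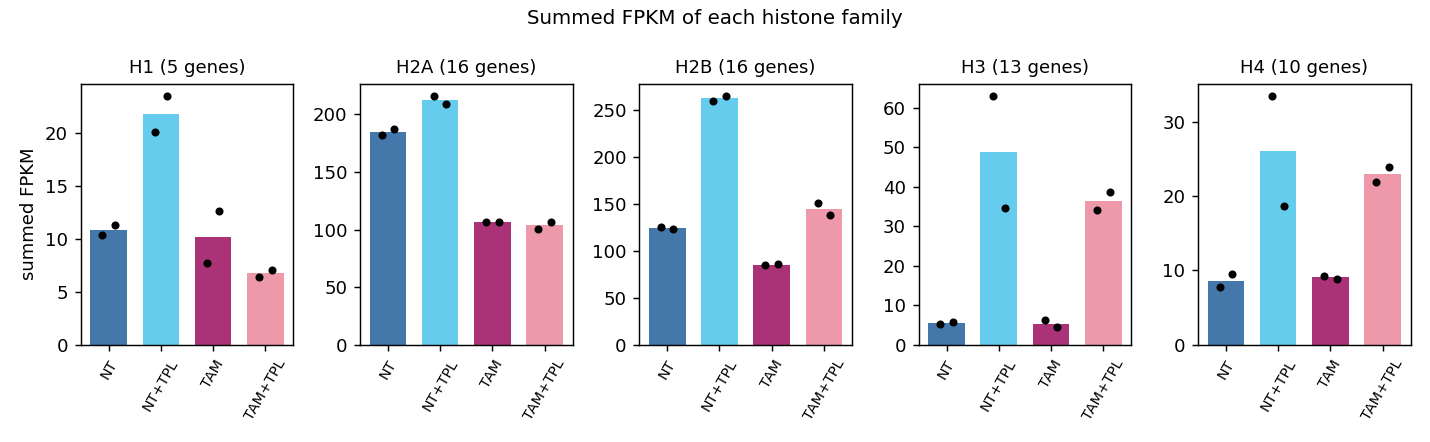
Summed FPKM of each histone family, with 1 panel per family; bars are the mean of the 2 libraries of a group and points are the libraries. H3 and H4 rise from means of 5.42 and 8.63 FPKM in NT to 48.8 and 26.01 in NT+TPL, whereas H1 goes up in NT and down in TAM cells.

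Among H2B genes, which encode the core histone that pairs with H2A, H2BC12 was the most abundant. It had 82.2 and 83.3 FPKM in NT against 134 and 157 in NT+TPL, and 51.7 and 60.2 in TAM against 86.6 and 73.4 in TAM+TPL. Both TPL libraries were above both DMSO libraries in each state, with a log2 fold change of 0.81 ± 0.17 (SE, n = 2 per group; adjusted p = 0.0104, edgeR) in NT and 0.47 ± 0.17 (adjusted p = 0.0722) in TAM cells.

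H2BC5 had a larger change with enough reads in every library to measure it. It had 14.9 and 6.74 FPKM in NT against 51.7 and 47.1 in NT+TPL, and 6.71 and 3.82 in TAM against 21.1 and 18.4 in TAM+TPL. The log2 fold change was 2.48 ± 0.39 in NT (adjusted p = 0.00385, edgeR) and 2.24 ± 0.41 in TAM cells (adjusted p = 0.00721). Of the members, it was the one that also passed the stricter threshold of 0.001 when only genes with at least 10 counts in every library were tested.

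H2BC6 was read with TPL and almost not without it. It had 0 FPKM in both NT libraries against 16.5 and 13.2 in NT+TPL, and 0.32 and 0 in TAM against 5.77 and 5.75 in TAM+TPL. Against 3 counts per library, the limit that a count of 0 allows, the level in NT+TPL was at least 16.2-fold higher than in NT (adjusted p = 0.00283, edgeR). In TAM cells about 1 count with DMSO stood against 36.7 with TPL, a ratio of 35.0 with an exact 95% counting interval from 6.44 to 1548 (adjusted p = 0.0100).

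H2BC17 showed the same order at a lower level. It had 0 FPKM in both NT libraries against 1.96 and 4.27 in NT+TPL, and 0 and 0.32 in TAM against 1.99 and 4.75 in TAM+TPL. It was at least 3.67-fold higher with TPL in NT cells (adjusted p = 0.0263, edgeR), and the ratio in TAM cells was 20.99 with a counting interval from 4.04 to 1018 (adjusted p = 0.0493). H2BC26, H2BC18 and H2BC4 had higher TPL means in both states without passing an adjusted p of 0.05, and H2BC9 and H2BC8 did not pass either. H2BC21, the H2B gene with the longest model, had log2 fold changes of -0.23 ± 0.21 in NT and -0.29 ± 0.22 in TAM cells (adjusted p = 0.425 and 0.334).

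H2A genes encode the partner of H2B, and their most abundant members did not share its change. H2AC18 and H2AC19 had 76.3 and 76.2 FPKM each in NT against 73.3 and 65.1 in NT+TPL, and 35.8 and 39.0 in TAM against 28.8 and 29.5 in TAM+TPL. The TPL change was -0.15 ± 0.14 in NT (adjusted p = 0.44) and -0.41 ± 0.15 in TAM cells (adjusted p = 0.0694, edgeR), and the levels were set apart by cell state more than by TPL. H2AC25, on chromosome 1, had 17.3 and 19.7 FPKM in NT against 35.9 and 46.4 in NT+TPL, and 13.1 and 15.9 in TAM against 19.5 and 22.9 in TAM+TPL. Its change was 1.15 ± 0.26 in NT (adjusted p = 0.0149) and 0.51 ± 0.26 in TAM cells (adjusted p = 0.172), with no overlap between TPL and DMSO libraries in either state. H2AC6 had log2 fold changes of 1.07 ± 0.38 and 1.05 ± 0.40, which missed an adjusted p of 0.05 in both states (0.0648 and 0.0819).

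H2AC17 was the H2A gene with the largest fitted rise in NT cells. It had 0.84 and 0.56 FPKM in NT against 6.81 and 7.02 in NT+TPL, and 1.82 and 3.25 in TAM against 4.07 and 5.93 in TAM+TPL. The change was 3.28 ± 0.63 in NT (adjusted p = 0.00787, edgeR) and 0.95 ± 0.55 in TAM cells (adjusted p = 0.224). The test of the difference between both changes gave an unadjusted p of 0.0252 and an adjusted p of 0.394, so a difference between cell states was not shown. H2AC8 had fitted changes of -0.56 ± 0.88 in NT and -2.52 ± 0.97 in TAM cells (adjusted p = 0.643 and 0.0863), and the value in NT cells was 0.24 without NT+TPL replicate 1. H2AC13 and H2AC20 stayed at or below 7.58 FPKM and passed no test with TPL (adjusted p between 0.0808 and 0.736).

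H3 genes encode the core histone whose tail carries many regulatory marks. The pair H3C14 and H3C15 was the most abundant, with 0.13 and 0.17 FPKM per gene in NT against 22.7 and 9.19 in NT+TPL, and 0.75 and 0.12 in TAM against 11.7 and 11.6 in TAM+TPL. With the reads of both genes added, 2.30 counts in NT stood against 234 in NT+TPL, a ratio of 108 with a counting interval from 33.9 to 1028 (adjusted p = 0.00712, edgeR). In TAM cells the fitted log2 fold change was 4.79 ± 1.08 (adjusted p = 0.0157). All TPL libraries of the pair lay above all DMSO libraries, although the NT+TPL replicates lay far apart. H3C10 had a change of 2.36 ± 0.62 in NT (adjusted p = 0.0251) and 1.33 ± 0.63 in TAM cells (adjusted p = 0.146). H3C6 rested on few reads, with ratios of 6.35 (counting interval 1.41 to 58.4) in NT and 6.40 (2.47 to 21.1) in TAM cells, and passed an adjusted p of 0.05 in TAM cells (0.0382) and not in NT cells (0.0587). H3C4 had changes of 0.48 ± 0.64 and 0.29 ± 0.65.

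H4 genes encode the partner of H3. H4C12, the most abundant, had 3.80 and 4.19 FPKM in NT against 8.03 and 4.48 in NT+TPL, and 2.58 and 4.81 in TAM against 4.94 and 5.67 in TAM+TPL. Its changes of 0.63 ± 0.59 and 0.47 ± 0.59 did not pass the test (adjusted p = 0.431 and 0.567). The pair H4C14 and H4C15 had 0.34 FPKM per gene in both NT libraries against 7.81 and 3.42 in NT+TPL, and 1.3 and 0.98 in TAM against 5.64 and 6.84 in TAM+TPL. With both genes added the ratio in NT cells was 16.7, with a counting interval from 6.19 to 63.0 (adjusted p = 0.00901, edgeR), and the fitted change in TAM cells was 2.36 ± 0.67 (adjusted p = 0.0348).

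H1 genes encode the linker histone, and nearly all of their RNA came from H1-2. H1-2 had 9.73 and 10.8 FPKM in NT against 18.7 and 21.8 in NT+TPL, and 7.08 and 11.3 in TAM against 3.76 and 4.83 in TAM+TPL. The TPL libraries were above DMSO in NT and below DMSO in TAM cells, with changes of 0.98 ± 0.33 (adjusted p = 0.0535, edgeR) and -1.14 ± 0.34 (adjusted p = 0.0402). The test of the difference gave -2.12 ± 0.47, with an unadjusted p of 0.00282 and an adjusted p of 0.201 over all genes. H1-4 had changes of 1.93 ± 0.88 and 1.94 ± 0.84 (adjusted p = 0.127 and 0.117), on few reads.

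Tested across all genes, 28 of the 60 members passed the filter on low counts and 32 did not. Genes were called where the adjusted p did not exceed 0.001 and the change reached 1.2 on the log2 scale. By edgeR's quasi-likelihood test, 0 of 28 members were raised by TPL in NT cells (1.22% of 16948 genes were) and 0 were lowered (2.71%). In TAM cells 0 were raised (0.844%) and 0 were lowered (2.04%). At an unadjusted p under 0.05 there were 15 members in NT cells, each of them higher with TPL, and 16 in TAM cells, of which 12 were higher. Of all genes, 23.7% were higher and 24.1% lower at that p in NT cells, and 21.05% and 24.03% in TAM cells. DESeq2 at the same thresholds called 4 members raised in NT cells (H2BC5, H2BC6, H3C14 and H3C15) and 3 in TAM cells (H2BC5, H3C14 and H3C15), and 0 lowered. With each pair counted once these were 3 and 2 of 25, beside 5.64% and 5.22% of all genes raised by that tool. On log2(FPKM + 1), limma called 3 raised in NT cells and 1 in TAM cells, or 2 and 1 with pairs counted once, beside 1.78% and 1.4% of all genes.

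At an adjusted p of at most 0.05 with the same fold, edgeR called 9 members raised by TPL in NT cells (32.1% of those tested, against 9.78% of all genes) and 0 lowered (11.3% of all genes). They were H2BC5, H2BC6, H2BC17, H2AC17, H3C10 and the pairs H3C14 and H3C15, and H4C14 and H4C15. In TAM cells 8 were raised (28.6%, against 9.05%) and 0 lowered (10.1%), namely H2BC5, H2BC6, H2BC17, H3C6 and the same pairs. With each pair counted once, 7 of 25 were raised in NT and 6 of 25 in TAM cells. Members enter the test only if a group has enough reads, and those near 0 with DMSO entered through their TPL libraries, so these counts describe the genes tested and not all 60. In TAM cells the count was 4 (H2BC5, H2BC6, H3C14 and H3C15) with DESeq2, with scaling to GAPDH, with no filter on low counts and with the replicate block, where in NT cells these gave 9, 8, 10 and 9. With pairs counted once, DESeq2 raised 3 of 25 in TAM cells (12%), near the 9.82% of all genes. In NT cells it raised 7 of 25 (28%, against 10.4%). The count lowered in TAM cells was 1 with limma on log2(FPKM + 1), which lowered 7.27% of all genes. It was also 1 with limma on log2(FPKM + 0.1) and with only the 2 groups compared. Shares of all genes are not given for the other settings. The counts also rested on single libraries. With 1 library left out, 5 to 10 members were raised in NT cells and 1 to 6 in TAM cells. The count in NT cells was 5 without either NT replicate. Without TAM replicate 2 only H2BC6 remained in TAM cells, without TAM+TPL replicate 1 only H2BC5, and without TAM+TPL replicate 2 only these 2 genes. The count in TAM cells was 4 without NT replicate 1, NT replicate 2, NT+TPL replicate 1 or TAM replicate 1.

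**Figure D3:**
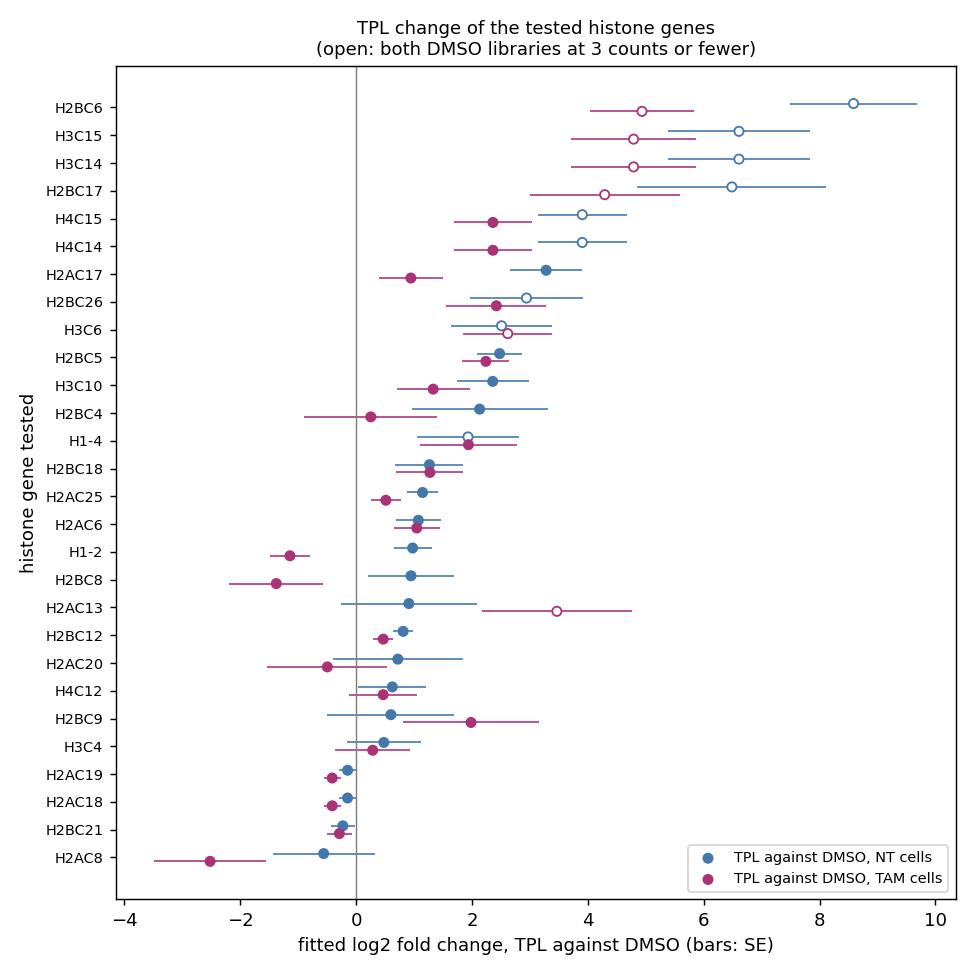
Fitted log2 fold change of TPL against DMSO for the 28 tested histone genes; the bars are standard errors, colours give the cell state, and open circles mark genes whose DMSO libraries both had 3 counts or fewer, for which the fitted value is no bound. Most points lie to the right of 0 in both states, while H1-2, H2BC8 and H2AC20 lie right of 0 in NT and left of 0 in TAM cells.

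In NT cells both TPL libraries were above both DMSO libraries for 31 of the 60 members and below for 2, and in TAM cells for 27 and 8. With pairs counted once these were 29 and 1 of 57, and 25 and 7. Of all genes listed, 31.9% lay above and 25.04% below in NT cells, and 35.5% and 26.3% in TAM cells.

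The 32 members that were not tested had at most a mean of 1.51 FPKM. Their summed counts were 25.4 and 36.2 in NT against 104 and 89.0 in NT+TPL, and 42.6 and 27.8 in TAM against 60 and 76.3 in TAM+TPL. The sums were therefore higher in each TPL library than in each DMSO library, which these genes reached without passing any filter. H3C12, an H3 gene, had no read in the 4 DMSO libraries and 21 counts in NT+TPL and 11 in TAM+TPL, at least 3.70-fold and 1.89-fold higher. H4C8 had no read with DMSO and 17 counts in NT+TPL, at least 2.996-fold higher. H2BC14 had no read with DMSO, 12 counts in NT+TPL and 14.9 in TAM+TPL, at least 2.12-fold and 2.56-fold higher. The other untested members with a mean of at least 1 FPKM were H4C9, H3C13, H2BC11, H2AC21 and H4C4, none above 3.26 FPKM in any library. In all, 9 members were at 0 in the 4 DMSO libraries and 0 members were at 0 in the 4 TPL libraries. The same counts over all genes, or over other untested genes, are not given. Since more genes of any kind were listed with TPL, these values do not set the histone members apart.

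The comparison of cell states asks what transformation changed before and after TPL. With DMSO, 0 of 28 members were called between TAM and NT cells by edgeR (0.655% of genes were), with 6 at an unadjusted p under 0.05 (19.9% of all genes were). DESeq2 called 0 members, beside 2.3% of all genes higher and 2.09% lower in TAM cells. The summed FPKM of the members was 331 and 337 in NT and 215 and 219 in TAM cells, and the drop lay mostly in H2BC12, H2AC18 and H2AC19. Without these the sums were 96.0 and 101 in NT and 91.4 and 80.4 in TAM cells. The median change over the 28 tested members was 0.13, with 14 above and 14 below 0. For H2AC18 and H2AC19 the change was -1.01 ± 0.14 (adjusted p = 0.00848), short of both thresholds. With TPL, 0 were called (0.596%), with 9 at an unadjusted p under 0.05 (21.3% of all genes). DESeq2 called H1-2, H2AC18 and H2AC19 lower in TAM cells, or 2 of 25 with pairs counted once, beside 2.17% of all genes. In edgeR these 3 had changes of -2.26 ± 0.34 for H1-2 (adjusted p = 0.0113) and -1.28 ± 0.15 for the pair (adjusted p = 0.00377). At an adjusted p of 0.05 with the same fold these 3 were lower in TAM cells with TPL, as were 2.42% of all genes. With pairs counted once they were 2 of 25. With DMSO 0 members were lower at that threshold, beside 2.35% of all genes. The TPL effect differed between states for 0 members (0% of genes), with H1-2 and H2AC17 at an unadjusted p under 0.05 (10.6% of all genes). DESeq2 called 0 members, beside 0.478% of all genes raised and 0.372% lowered. At an adjusted p of 0.05 DESeq2 lowered 1 of 25 with pairs counted once, beside 0.755% of all genes. The median difference over the 28 tested members was -0.58, with 5 above and 23 below 0. Over all genes it was -0.016, with 48.8% above 0. No test was made of these medians.

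RNAPII was measured over the same genes, independently of poly-A selection. A transcription start site (TSS) lay in a listed peak for 51 of 57 members placed on GRCh37 in NT (89.5%, against 50.2% of 20163 coding genes), 53 in NT+TPL (93.0% against 40.5%), 51 in TAM (89.5% against 45.7%) and 49 in TAM+TPL (86.0% against 39.5%). Members with little or no RNA were included, since 48 were occupied in all 4 lists and H2AC12, with a mean of 0.034 FPKM, was among them. The peak over H2AC12 was in all 4 lists the same as that over its divergent neighbour H2BC12, the most abundant member, so it cannot be credited to H2AC12. Of the 7 placed genes with no read in any RNA-Seq library, H1-5, H4C11 and H4C13 were occupied in all 4 lists and H2BC3 in 3. With the centre of a peak required within 500 bases of a TSS, 36, 41, 44 and 44 members were occupied, against 49.8, 41.8, 48.5 and 41.2% of coding genes.

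Most members with a peak kept it with TPL. At the canonical TSS, 50 of 50 members with a peak in NT had one in NT+TPL, against 77.1% of 9514 coding genes, and 47 of 50 kept it from TAM to TAM+TPL, against 80.8% of 8390. The members that lost it in TAM+TPL were H3C8, H4C1 and H4C14. No test was made of these shares, because each condition has a single list without a score and neighbouring members share peaks. H4C14 and H4C15 are near-identical copies, and H4C15 had a peak in TAM+TPL, where H4C14 did not, so reads of the pair may have been placed at either copy.

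Peaks over most members were narrower in the TPL lists. Over the 47 members occupied in all 4 lists the median width was 2260 bases in NT against 1697 in NT+TPL, and 1415 in TAM against 712 in TAM+TPL. The same medians for 6276 coding genes were 798, 682, 516 and 556 bases. From NT to NT+TPL the peak was narrower in 42 of 50 members (84.0%, against 62.8% of coding genes), and from TAM to TAM+TPL in 42 of 47 (89.4%, against 44.7%). The extent past the TSS, which covers these short genes and the bases after them, went from a median of 1217 to 934 bases in NT and from 810 to 309 bases in TAM cells. H3C14 was among the members with a wider peak in NT+TPL, of 6692 bases against 4733 in NT. The names in the TAM list carry another cutoff than those of the other 3 lists, so widths in TAM and TAM+TPL cannot be told apart from that setting, whereas NT and NT+TPL carry the same one.

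**Figure D4:**
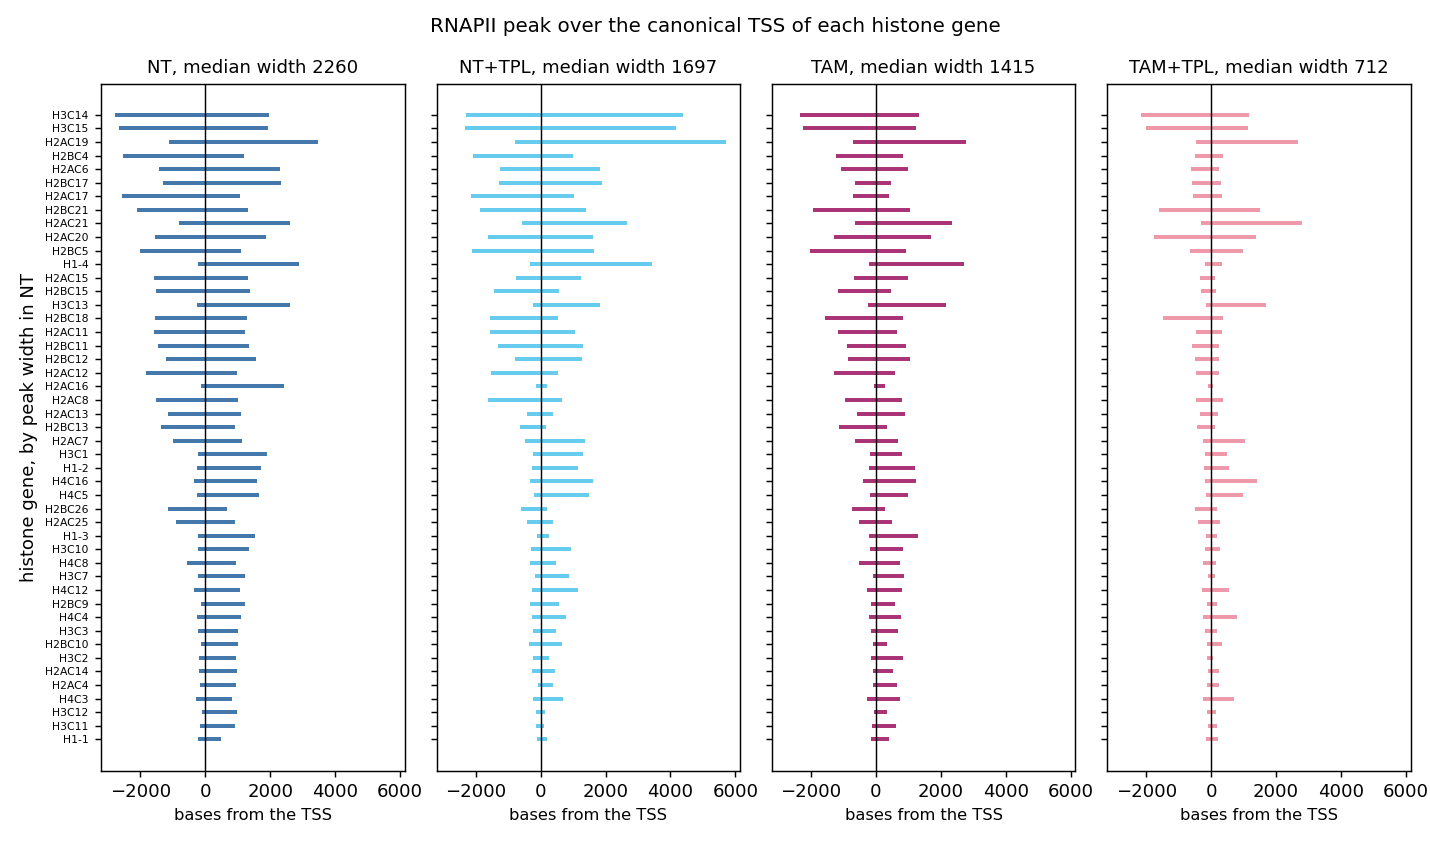
RNAPII peak over the canonical TSS of the 47 histone genes occupied in all 4 lists; each line is 1 gene, drawn from peak start to peak end in bases from the TSS (positive in the direction of transcription), with genes in the same order by width in NT. Lines shorten from a median of 2260 to 1697 bases in NT and from 1415 to 712 bases in TAM cells.

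H2BC6 and H2BC14 had a TSS inside a peak in NT+TPL and in no other list, but for both this turned on few bases. The H2BC6 peak was at chr6:26183955-26184328 in NT+TPL and at chr6:26184009-26184388 in NT, where it began 20 bases past the TSS. In TAM it began 195 bases past the TSS, and in TAM+TPL the nearest listed peak was 4551 bases away, although H2BC6 RNA was higher there than in TAM. The H2BC14 peak in NT+TPL is shared with the divergent gene H2AC14, and in NT that peak ended 59 bases before the H2BC14 TSS.

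Genes that share a promoter region differed in level. Among listed members, 9 pairs of an H2A and an H2B gene were divergent with TSSs 194 to 251 bases apart, and 8 of them lay under a single peak in NT. H2BC12 had a mean of 91.1 FPKM and its partner H2AC12 one of 0.034. H2AC25 and H2BC26 had 23.8 and 1.90 FPKM, and H2BC21 and H2AC20 had 14.1 and 2.76. In H2AC17 and H2BC17, whose common promoter is printed above, levels were 3.79 and 1.66 FPKM and both were higher with TPL in NT cells.

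The factors that make and process histone mRNA were listed beside their targets. Of 25 (transcription, cleavage, cap binding and decay factors), 0 were called with TPL in either state. At an adjusted p of 0.05 with the same fold, 2 were raised and 2 lowered in NT cells (9.78% and 11.3% of all genes were). In TAM cells 1 was raised and 4 were lowered (9.05% and 10.1% of all genes were). SLBP had 22.7 and 20.2 FPKM in NT against 8.52 and 10.8 in NT+TPL, and 28.5 and 26.5 in TAM against 6.76 and 13.8 in TAM+TPL. It was lower with TPL by -1.15 ± 0.32 in NT (adjusted p = 0.0302, edgeR) and -1.46 ± 0.32 in TAM cells (adjusted p = 0.0145). ERI1, an exonuclease that trims the histone 3' end, had changes of -1.81 ± 0.29 and -1.43 ± 0.28 (adjusted p = 0.00421 and 0.00924). SRRT, which links the cap-binding complex to RNA processing, had changes of -1.32 ± 0.19 and -1.70 ± 0.19 (adjusted p = 0.00274 and 0.00127). The factors raised at an adjusted p of 0.05 were, in NT cells, CCNE2, a cyclin E (2.03 ± 0.32, adjusted p = 0.00388), and MIF4GD, a partner of SLBP in translation (1.21 ± 0.19, adjusted p = 0.00353), and in TAM cells UPF1, a helicase of histone mRNA decay (1.23 ± 0.19, adjusted p = 0.0038). CCNE1, the other cyclin E gene of the list, was lowered in TAM cells at the same threshold. NPAT had changes of -0.52 ± 0.22 and -0.37 ± 0.22 (adjusted p = 0.109 and 0.238). DESeq2 called 4 and 5 of the 25. Of all genes it raised 5.64% and lowered 9.43% in NT cells, and raised 5.22% and lowered 8.22% in TAM cells.

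Replication-independent histones are made throughout the cell cycle from polyadenylated mRNAs. Of 11 listed genes, H3-3B was called lower with TPL in both states, by -1.60 ± 0.16 in NT (adjusted p = 6.94e-04, edgeR) and -2.22 ± 0.16 in TAM cells (adjusted p = 3.67e-04). The H3.3 gene H3-3A, which encodes the same protein, had a change of 1.47 ± 0.27 in NT (adjusted p = 0.00714). Of 12 histone chaperones, ASF1B, which carries H3 and H4 during replication, was called higher in both states, by 4.41 ± 0.29 and 2.61 ± 0.24 (adjusted p = 2.53e-04 and 6.86e-04), and HIRA, a chaperone of H3.3, was called lower in NT cells, by -1.48 ± 0.15 (adjusted p = 7.34e-04).

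Genes of S phase were set beside the histone members. Of 21, MCM3, a subunit of the replicative helicase, was called lower in both states, by -2.08 ± 0.18 and -1.83 ± 0.17 (adjusted p = 4.68e-04 and 7.04e-04, edgeR), and none was called higher. The list median was 0.01 in NT and -0.69 in TAM cells, and between TAM and NT cells with DMSO it was 1.28. In that last comparison the summed FPKM of the histone members was lower, mostly through H2BC12, H2AC18 and H2AC19, while the median over tested members was 0.13. RNAs that lack a poly-A tail were read as a measure of carry-over. Of 16 listed, 7 were tested and 0 called. RNU2-1 (U2 snRNA) had 3.18 and 3.98 FPKM in NT against 47.1 and 52.0 in NT+TPL, and 7.72 and 4.64 in TAM against 51.7 and 46.6 in TAM+TPL, a change of 3.75 ± 0.44 and 2.92 ± 0.41 (adjusted p = 0.00121 and 0.00277). RN7SL1, the RNA of the signal recognition particle, had 694 and 602 FPKM in NT against 262 and 229 in NT+TPL, and 465 and 758 in TAM against 1088 and 431 in TAM+TPL. RN7SK (7SK RNA) had a change of 2.10 ± 0.62 in NT (adjusted p = 0.0367) and 1.58 ± 0.62 in TAM cells (adjusted p = 0.0927). The median over the 7 was 1.03 in NT cells, where RN7SL1 and RN7SL2 were below 0, and 0.67 in TAM cells, where all 7 values were above 0. The part of carry-over of RNA without a poly-A tail in the histone values was not tested.

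Library totals lay between 7461309 and 8349448 counts, so a member with 3 counts stood near the limit of what could be read. The line was checked against markers. All 10 mammary epithelial markers were read, with summed FPKM of 13797 and 15500 in NT against 10101 and 12385 in NT+TPL, and 3813 and 4054 in TAM against 2258 and 2426 in TAM+TPL, and KRT5 and KRT17 were called lower in TAM than in NT cells with DMSO. KRT5 and TP63 were called lower with TPL in TAM cells and TP63 in NT cells. Of 10 markers of other cell types, 8 were listed, and their sum of 52.2 and 52.7 FPKM in NT against 82.3 and 98.3 in NT+TPL, and 283 and 303 in TAM against 411 and 478 in TAM+TPL was almost wholly CD68, a lysosomal protein. The highest value in any library was 6.14 FPKM for COL1A1, 2.14 for PTPRC, 1.69 for PECAM1, 1.15 for COL1A2, 0.17 for CD3E, 0.09 for PDGFRB and 0.04 for VWF. PTPRC had changes with TPL of 1.78 ± 0.80 and 1.87 ± 0.80 (adjusted p = 0.123 and 0.115). The part of these shifts in the histone values was not tested.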

How the data were processed

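The RNA-Seq files give expected counts per gene, which the authors estimated with RSEM from reads of poly-A-enriched RNA aligned with Bowtie2, deposited without normalization. The FPKM values were computed by the authors from the same reads, scaled by gene length and library total, as deposited. The peak lists, deposited by the authors as start and end positions on hg19 with no score, come from MACS, and their peak names carry replicate 1 and a cutoff. Genes without a row were taken as 0.

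After rounding, expected counts went into 1 fit of 4 groups of 2 in edgeR 4.0.16 (R 4.3.3), with TMM scaling, filterByExpr and the quasi-likelihood test, and p-values were adjusted by Benjamini-Hochberg over 16948 genes. Replicates were biological, and same-numbered libraries did not deviate together. Alternatives used DESeq2 1.42.0, limma 3.58.1, other scalings, filters, thresholds and left-out libraries. The test was checked on simulated data. TSSs came from GENCODE release 44 lifted to GRCh37, promoters from RefSeq on GRCh38.p14. Plots used matplotlib 3.10.9.

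Thresholds for a call (adjusted p and fold) follow the study's methods. Named genes are members with a mean of at least 1 FPKM, members called, up to 3 with the largest fitted rise or fall per TPL comparison, called list genes, SLBP and NPAT. Others (ERI1, SRRT, CCNE1, CCNE2, MIF4GD, UPF1, H3-3A, RNU2-1, RN7SL1, RN7SL2, RN7SK, H2AC12, H4C1, H3C8) were chosen after their values were seen. Members, lists and tests were chosen with earlier results of these data known. A floor of 3 counts per library gives the lower bounds, and intervals of 95% cover counting error only. An H2BC12 row listed by accession, with at most 5.4 counts, was left out.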

Additional observations from a re-analysis of the deposited data

Results flagged for a closer look

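H1-2, the linker histone gene with the most RNA, was flagged because its TPL libraries were all above DMSO in NT and all below DMSO in TAM cells. The difference between both changes was -2.12 ± 0.47 on the log2 scale, with an unadjusted p of 0.00282 and an adjusted p of 0.201 in edgeR's interaction test. H2BC8 was flagged for the same reason, with 3.84 and 3.55 FPKM in NT against 8.43 and 6.02 in NT+TPL, and 3.44 and 3.45 in TAM against 0.32 and 2.35 in TAM+TPL. Its difference was -2.32 ± 1.10 (unadjusted p = 0.0729, adjusted p = 0.499). Neither passed the threshold.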

How the results depend on the processing

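The count of 0 members raised by TPL in NT cells became 1 with at least 10 counts in every library, 4 with DESeq2, 3 with limma on log2(FPKM + 1), 1 with limma on log2(FPKM + 0.1) and 9 at an adjusted p of 0.05, and in TAM cells 1, 3, 1, 0 and 8. The count between TAM and NT cells with TPL became 3 with DESeq2 and 3 at an adjusted p of 0.05. With the replicate block it stayed 0 in every comparison, as with each library left out. The numbers share no pairing: same-numbered libraries of NT and NT+TPL had deviations correlated at -0.135, and a block with crossed numbers, added after seeing the data, also called 0. At an adjusted p of 0.05 the replicate block left 9 raised in NT and 4 in TAM cells. Peak counts kept within 1.5 times. Scaling to GAPDH moved the median of all genes from 0.09 to -0.26 in NT cells and from -0.03 to -0.50 between TAM and NT cells, and upper quartile scaling moved it to 0.31 and 0.29 with TPL. Signs reversed for H2AC18 in NT cells with upper quartile scaling (0.072), for H2BC21 with 1 library left out (from -0.54 to 0.044, above 0 without NT+TPL replicate 2) and for H2AC8 (from -2.46 to 0.24, above 0 without NT+TPL replicate 1). Log2 ratios of summed FPKM moved with GAPDH to 0.40 (all members, NT), 0.37 (all, TAM), 0.64 (H1, NT), -0.17 and -0.21 (H2A, NT and TAM), 0.71 and 0.59 (H2B) and 1.18 (H4, TAM), and with shares of counts to 0.69 and 0.44 (all) and 0.81 and 0.56 (H2B). List counts at an adjusted p of 0.05, and by DESeq2, were 4 and 4 (NT) and 5 and 5 (TAM) for processing factors, 7 and 6, and 2 and 2, for replication-independent histones, 3 and 3, and 5 and 3, for S phase genes, and 3 and 2, and 1 and 1, for RNAs without a tail. Chaperones had 2 in TAM cells at 0.05. At that threshold edgeR raised 9.78% and lowered 11.3% of all genes in NT cells, and 9.05% and 10.1% in TAM cells. With GAPDH, H3-3B in NT and MCM3 in TAM cells were no longer called (0 each). The causes of these moves were not tested. Low counts limit most members: the filter left 32 of 60 untested, and without it all 60 were tested and H3C12 was also raised in NT cells at an adjusted p of 0.05, and with 2 libraries per group the adjusted p rests on the spread shared across genes.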
